A study of Mus musculus with 9 samples.

Results

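The nuclear genes that encode the mitochondrial respiratory chain and ATP synthase were followed in whole mouse colons with and without deletion of Ptch1, the receptor that keeps Hedgehog signalling off when no ligand is bound. Members were taken by gene symbol alone. They are the probe set rows of the array whose platform annotation gives exactly 1 symbol, where that symbol begins with Nduf followed by a, b, c, s or v, with Uqcr, with Cox4 to Cox7 or with Atp5, or is Cyc1, Sdha, Sdhb, Sdhc or Sdhd. This gave 174 rows of 88 genes, out of 34945 rows of 18193 genes with 1 symbol. A further 10 rows carried a member's name together with that of another gene and were left out. The rule itself uses gene symbols and no measured value, though it was chosen with earlier results of these data known.

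The study measured whole-colon RNA on 9 Affymetrix mouse expression arrays. For 5 arrays (mutant) the genotype was Rosa26-CreERT2-Ptch1fl/fl, with loxP-flanked Ptch1 and a tamoxifen-inducible Cre under the body-wide Rosa26 locus. Exons 8 and 9 of Ptch1 were to be deleted. For the other 4 (wildtype) it was Rosa26-CreERT2-Ptch1+/+, so the controls carried the same Cre with unmodified Ptch1. Strain background (C57BL/6 crossed with Balb/c, mixed) and tamoxifen were shared by both groups, with 1 mg injected intraperitoneally on each of 5 days and tissue taken at day 12. In a mixed background single genes can differ between mice, and the labels do not give this by array. The age of the mice is not given in the labels. The Cre is active body-wide, so the deletion was not limited to a cell type, and Ptch1 itself could not be checked by level or direction in these rows. Whether each array is a separate animal is not stated, so every p-value below rests on array-to-array spread, which may be technical.

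The respiratory chain passes electrons from NADH and succinate to oxygen through complexes I to IV of the inner mitochondrial membrane and pumps protons at complexes I, III and IV. Complex V, the ATP synthase, lets the protons flow back and makes ATP. Absorptive cells of the colon draw much of their energy this way, with butyrate from gut bacteria as a main fuel. Most subunits are encoded in the nucleus, and the symbols here cover those nuclear genes, with some assembly factors.

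A row name in this table could not be tied to a level or a direction. Among the 49 member genes with at least 2 rows, the first 2 rows of a gene correlated at 0.158 in the percentile of absolute t (0.250 over 9010 genes of the array), at 0.00985 in mean log2 level and at -0.211 in signed t. All points share the same 9 arrays, and these values are descriptions. In 5 member genes, more than 1 row had an unadjusted p under 0.05, and in 0 of the 5 did those rows all have the same sign. Members are therefore described by the size of the moderated t of limma, without its sign, as a percentile among all rows with 1 symbol (100 is the strongest difference, and the median of all rows is 50). No direction, fold or level is given for a named gene. Names and values may be mismatched in the table, so a percentile or call belongs to the row that carries the name and may not be that of the gene.

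Respiratory chain and ATP synthase rows differed less between mutant and wildtype colons than the rows of the array as a whole. Of the 174 rows, 4 passed an adjusted p of 0.05 by limma (2.30%), where 5.19% of all rows with 1 symbol passed. At an unadjusted p under 0.05 there were 22 (12.6%), against 21.1% of all rows. Mutant and wildtype arrays did not overlap in 7 member rows (4.02%), against 9.78% of all rows. The median percentile of the members was 41.0, with quartiles of 23.8 and 65.3. Only 7 rows (4.02%) stood in the strongest 10.0% of the array and 26 (14.9%) in the strongest 25%. The weakest 25% held 48 (27.6%), so members were sparse at the top rather than gathered at the bottom. Averaged over the rows of each gene, the median was 35.7 over the 88 genes, against 48.6 over all genes, and 28 of the 88 lay above 50. A low percentile means a weak difference and not a lower level. In a whole colon, a change in the share of a cell type and a change in RNA per cell cannot be told apart.

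The median stood below 50 in all 20 other settings in which it was recomputed, and the share called stood below that of all rows in each. These settings reuse the same arrays, and where few rows pass at all, a lower share among members was nearly fixed in advance. Array number also mattered. Array numbers from the sample titles averaged 4.2 in mutants and 8.0 in wildtypes, so number and group were tied. With array number as a covariate the members' median was 49.6, with 0 of 174 rows past the threshold (limma). Only 0.0773% of all rows passed there, so the 0 says nothing about members. At an unadjusted p under 0.05 there were 16 members (9.20%), against 14.3% of all rows. Counts of members past the threshold also fell when an array was left out. They were 2 without mutant replicate 2 (1.77% of all rows), 1 without mutant replicate 3 (1.76%), 2 without mutant replicate 5 (3.89%) and 2 without wildtype replicate 2 (2.87%). Without wildtype replicate 3 (0.987% of all rows) or wildtype replicate 4 (1.02%) there were 0 (limma). At an unadjusted p under 0.05 there were 19 members in each (10.9%), against 17.3% and 17.4% of all rows. The count was 3 without mutant replicate 1 (3.52% of all rows) or wildtype replicate 1 (6.51%) and 4 without mutant replicate 4 (5.28%).

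Other ways to treat the rows kept members below the array. With the brightest row of each gene 2 of 88 genes passed (2.27%, against 8.10% of all genes), and with the mean over the rows of each gene 1 of 88 (1.14%, against 6.09%). With dim rows left out 3 of 106 passed (2.83%, against 9.83%). With rows ending in _x_at, _s_at or _a_at left out, which can pick up more than 1 transcript, 1 of 89 did (1.12%, against 3.95%). Of the 174 rows, 3 passed with a trended and robust variance (4.69% of all rows), 6 with array weights (8.22%), 4 with quantile normalization (5.15%), 4 centred on array medians (5.05%), 3 with a pseudocount of 1 (4.63%) and 4 with a pseudocount of 64 (4.51%). Under an adjusted p of 0.01 there were 0 (0.266% of all rows) and under 0.10 there were 7 (9.85%).

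**Figure D1:**
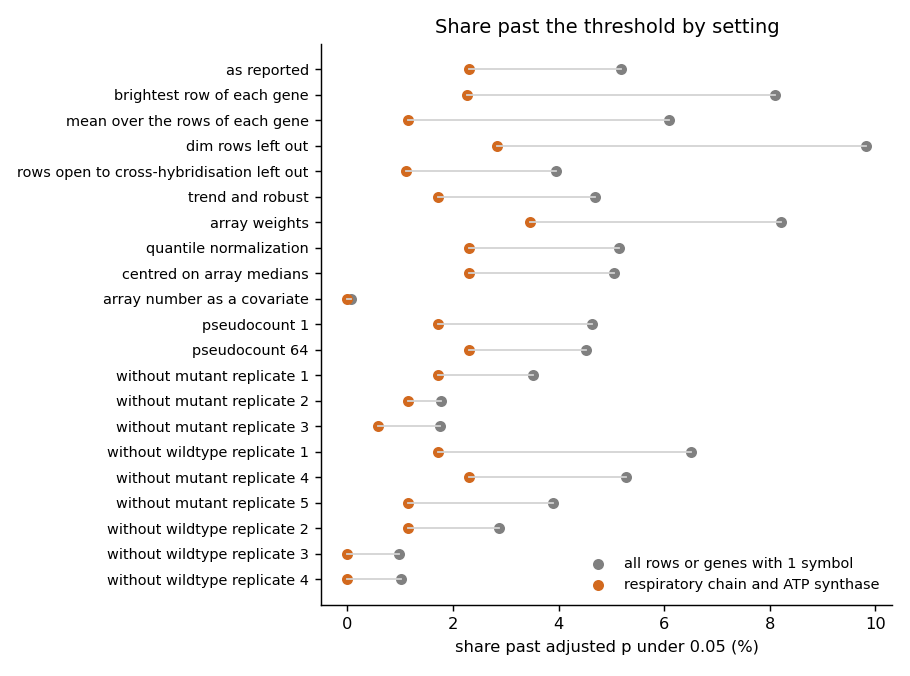
Share of rows or genes past an adjusted p of 0.05 (x axis, percent) in each setting (y axis), for respiratory chain and ATP synthase members (orange) and for all rows or genes with 1 symbol (grey). Members lie to the left in every setting shown, from 0% to 3.45%. Both shares are near 0 with array number as a covariate, so their order there says nothing about members. The setting labelled for cross-hybridisation leaves out all rows ending in _x_at, _s_at or _a_at.

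The exception was Cox7a2l, whose 3 rows all passed and made up 3 of the 4 calls. Cox7a2l encodes a protein that resembles a subunit of cytochrome c oxidase and can hold complexes III and IV together in supercomplexes. Its rows had percentiles of 98.1, 97.5 and 96.5, with absolute t of 5.42, 5.08 and 4.66 (limma adjusted p = 0.0233, 0.0280 and 0.0364). To show the arrays without a direction, each was placed on a scale where the wildtype mean of the row is 0 and the mutant mean is 1.

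On this scale the first Cox7a2l row (1421772_a_at) placed the mutants at 0.83, 0.67, 0.76, 1.45 and 1.29, and the wildtypes at -0.07, 0.31, -0.08 and -0.16. The groups did not overlap, and wildtype replicate 2 came nearest to the mutants. The second row (1432263_a_at) placed the mutants at 0.65, 0.65, 1.24, 1.49 and 0.97 and the wildtypes at -0.07, 0.00, 0.36 and -0.28. Here wildtype replicate 3 was the nearest. The third row (1432264_x_at) placed them at 1.14, 0.73, 1.53, 0.71 and 0.89 and at -0.06, 0.23, 0.30 and -0.48. Mutant replicate 4 was the farthest from the wildtypes in the first 2 rows and the nearest to them in the third. The separation follows from the calls and is a description. Of the 3 rows, 2 shared a sign and the other had the opposite sign, which this scale does not show. Among any 3 rows at least 2 must share a sign, so this is no agreement between them. Rows of 1 gene are also not independent of each other.

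The first row lost its call in 3 of 17 other settings. With array number as a covariate its absolute t was 5.37, close to the 5.42 without it, and the adjusted p was 0.101 by limma. Without wildtype replicate 3 the absolute t was 4.60 (adjusted p = 0.0736, limma) and without wildtype replicate 4 it was 4.56 (0.0750). The second lost it in 5 of 17. Its absolute t was 4.80 with the covariate (adjusted p = 0.122, limma), against 5.08, and 5.55 without wildtype replicate 3, where the adjusted p was 0.0529. It was 4.48 without mutant replicate 3 (0.0691), 4.40 without wildtype replicate 2 (0.0620) and 4.28 without wildtype replicate 4 (0.0871, limma). The third lost it in 9 of 16. Its absolute t fell from 4.66 to 2.81 with the covariate (0.283), and without any one array other than mutant replicate 4 it ran from 3.98 to 4.75 (0.0566 to 0.0957 by limma). Leaving Cox7a2l out, 1 of 171 member rows passed (0.585%) and the median percentile was 40.2.

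The other call was Ndufa6, a complex I subunit that anchors the mitochondrial acyl carrier protein to the complex. Its only row (1448427_at) had an absolute t of 4.89 and a percentile of 97.1 (limma adjusted p = 0.0315). Mutants were placed at 1.05, 1.05, 0.74, 1.2 and 0.96 and wildtypes at -0.27, 0.46, 0.20 and -0.38, without overlap, and wildtype replicate 2 was the nearest. It lost its call in 10 of 18 other settings. Its absolute t was 3.52 with the covariate (adjusted p = 0.196), 3.51 with a trended and robust variance (0.0763) and 3.99 with a pseudocount of 1 (0.0533, all limma). Leaving out any one array other than mutant replicate 4 or wildtype replicate 2 gave adjusted p of 0.0530 to 0.0912 (limma), with an absolute t of 4.10 to 4.90. At the top of that range, without mutant replicate 3, the t was 4.90 and the call was still lost (0.0567).

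**Figure D2:**
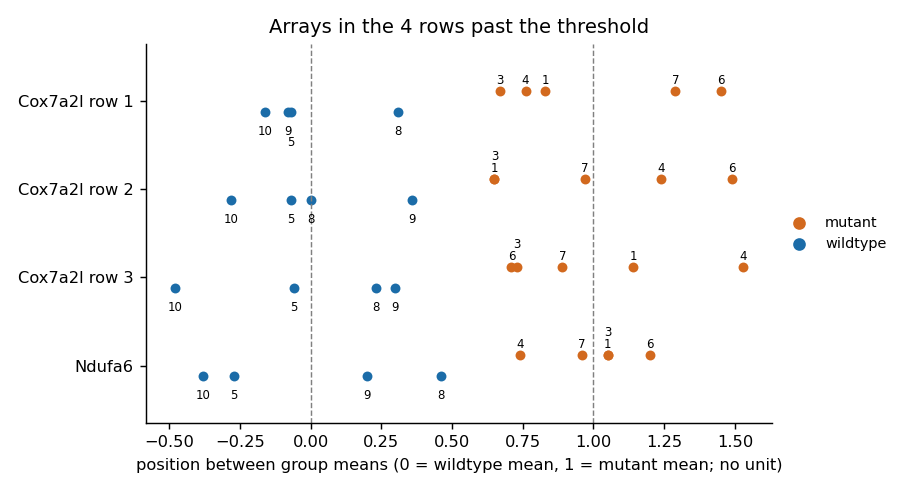
Position of each array between the group means (x axis, no unit, wildtype mean 0 and mutant mean 1) in the 4 member rows past the threshold (y axis), with mutants in orange, wildtypes in blue and the array number beside each point. Wildtypes reach at most 0.46 (Ndufa6) and mutants start at 0.65 (the second Cox7a2l row).

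The largest adjusted p among the 4 calls was 0.0364, and the next member row stood at 0.0804. That next row belonged to Cox6a2, the form of a cytochrome c oxidase subunit known from heart and skeletal muscle, followed by rows of the complex I subunits Ndufa10 (0.0840) and Ndufb11 (0.0886). Ndufa10 passed with array weights (0.0417) and without wildtype replicate 1 (0.0465), and Ndufb11 with array weights (0.0464, all by limma).

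Promoter windows of these genes held a motif of NRF1 more often than all windows did, though most held none. NRF1 is a transcription factor named for its part in nuclear respiratory genes. The windows searched run from 250 bases before to 50 after each start (RefSeq, GRCm38.p6), and 72 of the 88 genes matched, with 77 windows. The NRF1 motif, on either strand, was found in 18 of 77 (23.4%), against 4.60% of all 32851 windows. For YY1, the letters AAGATGGC on either strand were in 10 (13%, against 2.75%). The ETS letters CCGGAAGT were in 4 (5.19%, against 3.89%) and the ERR letters TCAAGGTCA in 2 (2.60%, against 0.423%). None of these 4 motifs contains another, and a match is not a bound site. Genes with an NRF1 match had a median percentile of 39.7 (17 genes) and those without one 36.6 (55 genes), so the match did not divide strong from weak rows by much; the difference was not tested. For YY1 the medians were 40.9 with and 37.0 without a match, for ERR 51.8 (2 genes) and 36.2, and for ETS the order was the other way, 29.9 (4 genes) and 38 (68 genes).

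Below are the windows of the 2 genes with calls, and of Uqcrc1, a structural subunit of complex III at percentile 16.9, as an example with 2 NRF1 matches. Capitals mark the NRF1 motif. Ndufa6 (chr15:82354242-82354541, minus strand) holds 1 match, Uqcrc1 (chr9:108936398-108936697, plus strand) holds 2, and in the Cox7a2l window (chr17:83514284-83514583, minus strand) the motif does not occur.
Cox7a2l: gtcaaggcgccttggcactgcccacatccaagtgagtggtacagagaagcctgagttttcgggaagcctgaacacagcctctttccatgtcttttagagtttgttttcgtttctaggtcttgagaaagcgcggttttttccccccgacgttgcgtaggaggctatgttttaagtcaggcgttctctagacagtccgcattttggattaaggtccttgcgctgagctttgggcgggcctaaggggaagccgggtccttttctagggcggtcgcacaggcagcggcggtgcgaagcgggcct
Ndufa6: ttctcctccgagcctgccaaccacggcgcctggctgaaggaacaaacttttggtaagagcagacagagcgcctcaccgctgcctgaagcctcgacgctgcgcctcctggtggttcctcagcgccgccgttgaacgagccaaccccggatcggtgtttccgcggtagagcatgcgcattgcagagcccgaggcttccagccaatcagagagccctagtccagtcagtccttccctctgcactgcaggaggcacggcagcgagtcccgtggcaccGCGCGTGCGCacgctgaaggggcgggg
Uqcrc1: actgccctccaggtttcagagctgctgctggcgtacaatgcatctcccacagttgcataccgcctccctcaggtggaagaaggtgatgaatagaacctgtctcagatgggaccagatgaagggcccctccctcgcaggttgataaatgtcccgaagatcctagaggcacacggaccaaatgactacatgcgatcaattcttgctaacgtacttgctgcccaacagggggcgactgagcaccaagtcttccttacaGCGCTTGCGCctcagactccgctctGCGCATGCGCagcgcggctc

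Between complexes, median percentiles ran from 29.9 to 50.2. The order was not stable over the settings. Complex III, which passes electrons from ubiquinol to cytochrome c, was lowest at 29.9 over 17 rows of 9 genes. Complex I stood at 40.4 (86 rows, 42 genes), complex V at 41.4 (31 rows, 17 genes), complex II at 46.7 (9 rows, 4 genes) and complex IV at 50.2 (31 rows, 16 genes). Over genes, with the rows of each averaged, the order changed, with 33.3 in complex III, 34.8 in I, 36.3 in II, 40.4 in IV and 44.1 in V. When the median was recomputed without 1 array at a time its SD was 2.44 in complex I and 7.73 in complex II, with 4.10 to 5.54 in the others. Complexes II, I and V lie closer together than that spread in complex II. Refits that share most of their arrays understate the true spread, so these SDs do not set complex III or IV apart. No difference between complexes was tested.

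**Figure D3:**
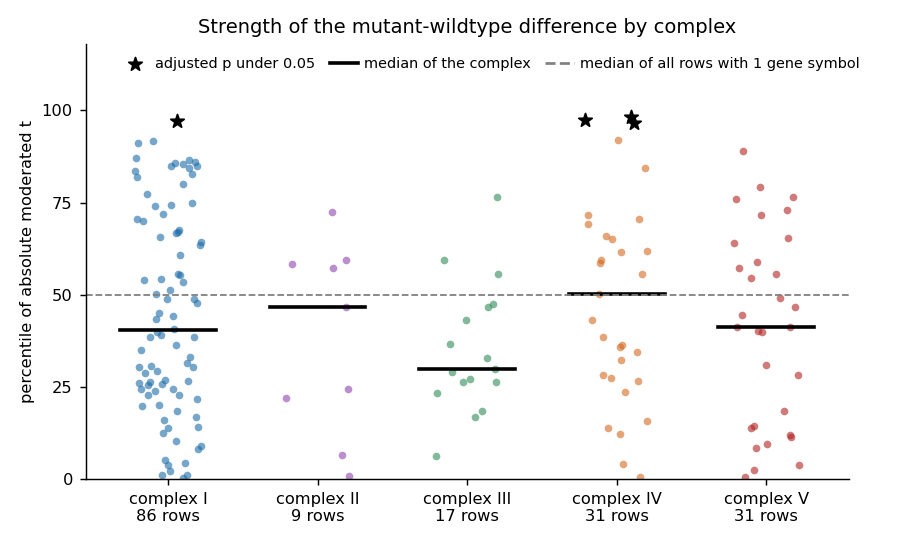
Percentile of the absolute moderated t (y axis, 100 is the strongest difference) of each member row, by complex (x axis, with the number of rows). Stars are the 4 rows past an adjusted p of 0.05, black bars are the medians of the complexes (29.9 in III to 50.2 in IV) and the dashed line is the median of all rows with 1 symbol.

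Complex I oxidises NADH and is the largest of the complexes. Of its 86 rows, 1 passed (1.16%, against 5.19% of all rows) and 15 were at an unadjusted p under 0.05 (17.4%, against 21.1%). In its catalytic core, 0 of 16 rows passed and 3 were at an unadjusted p under 0.05 (limma). These 3 all belonged to Ndufs8, an iron-sulfur subunit, whose 6 rows ran from percentile 39.1 to 85.5. Ndufv1, which binds the flavin that takes electrons from NADH, had a mean percentile of 55.8 over 3 rows, and Ndufs1, another iron-sulfur subunit, stood at 55.6. The iron-sulfur subunit Ndufs7 averaged 33.7, Ndufs3 stood at 26.4 and the iron-sulfur subunit Ndufv2 averaged 16.3. Apart from Ndufs8, no core row lay above 70.5, the strongest row of Ndufv1.

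Accessory subunits surround the core and give the complex its shape and stability. They held 60 rows of 28 genes, with 1 call (Ndufa6), 12 at an unadjusted p under 0.05 (20.0%) and a median of 44.0. All 3 rows of Ndufb11, in the membrane arm, lay between 84.3 and 91.1. The 5 rows of Ndufa7 ran from 66.7 to 86.6 and the 3 rows of Ndufa3 from 54.0 to 87.0. Ndufs4, an accessory subunit of the NADH-oxidising arm, ran from 23.9 to 86.1 over 4 rows, and Ndufab1, the acyl carrier protein that Ndufa6 anchors, from 25.5 to 82.0 over 5. At the other end, Ndufb4 stood at 1.1, Ndufb3 at 3.86 and the 2 rows of Ndufb7 averaged 10.3. The Ndufaf genes, which help to assemble complex I, had a median of 26.3 over 10 rows of 8 genes, with 0 calls and 0 at an unadjusted p under 0.05 (limma), and Ndufaf5 alone reached above 50, at 54.3.

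Complex II, succinate dehydrogenase, joins the citric acid cycle to the chain. Of its 9 rows 0 passed and 0 were at an unadjusted p under 0.05 (limma), against 5.19% and 21.1% of all rows. The iron-sulfur subunit Sdhb stood at 72.6. Sdha, the flavoprotein that oxidises succinate, ran from 0.804 to 58.3 over 4 rows, and the membrane anchors Sdhc and Sdhd averaged 33.0 and 39.7 over 2 rows each. In complex III, 0 of 17 rows passed and 0 were at an unadjusted p under 0.05 (limma), against the same shares of all rows. Complexes II and III hold few rows to read such shares from. Both catalytic subunits of complex III that are encoded in the nucleus were low, with cytochrome c1 (Cyc1) at 33.0 and the Rieske iron-sulfur protein (Uqcrfs1) at 36.6. The strongest row belonged to the small subunit Uqcr10, at 76.4, and the small subunits Uqcrb and Uqcrq reached 55.8 and 59.5.

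Complex IV, cytochrome c oxidase, hands electrons to oxygen, and its nuclear subunits tune a catalytic core encoded in mitochondrial DNA. It had 3 calls in 31 rows (9.68%, against 5.19% of all rows), and all 3 were Cox7a2l, which is no constant subunit of it. Without Cox7a2l and Ndufa4l2, 0 of 27 rows passed, 2 were at an unadjusted p under 0.05 (limma), and the median was 38.5. Leaving out assembly and other genes was added after the data were seen. The median of complex I keeps its Ndufaf genes, so it is not on the same footing as this one. Several subunits come in paired forms from different genes. Among these the common form Cox4i1 stood at 66.0 and its relative Cox4i2 at 12.3. The common forms Cox6a1 and Cox6b1 averaged 45.1 and 64.6, against 78.6 for the muscle form Cox6a2 and 0.527 for the testis form Cox6b2. Cox7a2 averaged 25.1, its muscle relative Cox7a1 stood at 23.8, and Cox7b2 at 34.4. Neither the common nor the restricted forms stood on 1 side. Cox5b, a single-form subunit, had 6 rows spread from 4.10 to 84.4, and Ndufa4, once counted with complex I and placed here with complex IV, stood at 35.8.

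Complex V had 0 calls in 31 rows, against 5.19% of all rows, which is few rows to read a share from. At an unadjusted p under 0.05 it had 2 (6.45%, against 21.1% of all rows, limma). Its catalytic head and stalk, where ATP is made, had the lowest median of its parts, 18.5 over 9 rows of 5 genes. The head subunits Atp5a1 and Atp5b stood at a mean of 27.1 and at 54.6, and the stalk subunits Atp5d and Atp5e at a mean of 28.2 and at 9.53. The 2 rows of Atp5c1, the rotating central stalk, lay far apart, at 89.0 and 2.45, and the groups did not overlap in the first (limma adjusted p = 0.113). Atp5g1, Atp5g2 and Atp5g3 are separate genes for the same ring-forming protein that the protons turn. They averaged 61.3, 44.1 and 64, with a median of 55.4 over 6 rows. The peripheral stalk and other membrane subunits had a median of 40.7 over 16 rows, from Atp5h at a mean of 6.29 to Atp5k at 71.2 and Atp5j at 73.0.

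Rows of 1 name often lay far apart. In the 49 genes with at least 2 rows, the median distance between the highest and lowest row was 29.6 percentiles. Ndufa10 had its 2 rows at 91.6 and 4.44, while every row of Cox7a2l, Ndufb11, Ndufa7, Atp5k and Cox6a2 lay at 65.2 or higher. Of the 14 genes with a row at an unadjusted p under 0.05, 5 had more than 1 such row and held 13 of the 22 rows. These 5 were Cox7a2l, Ndufb11, Ndufs8, Ndufa7 and Ndufa3.

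**Figure D4:**
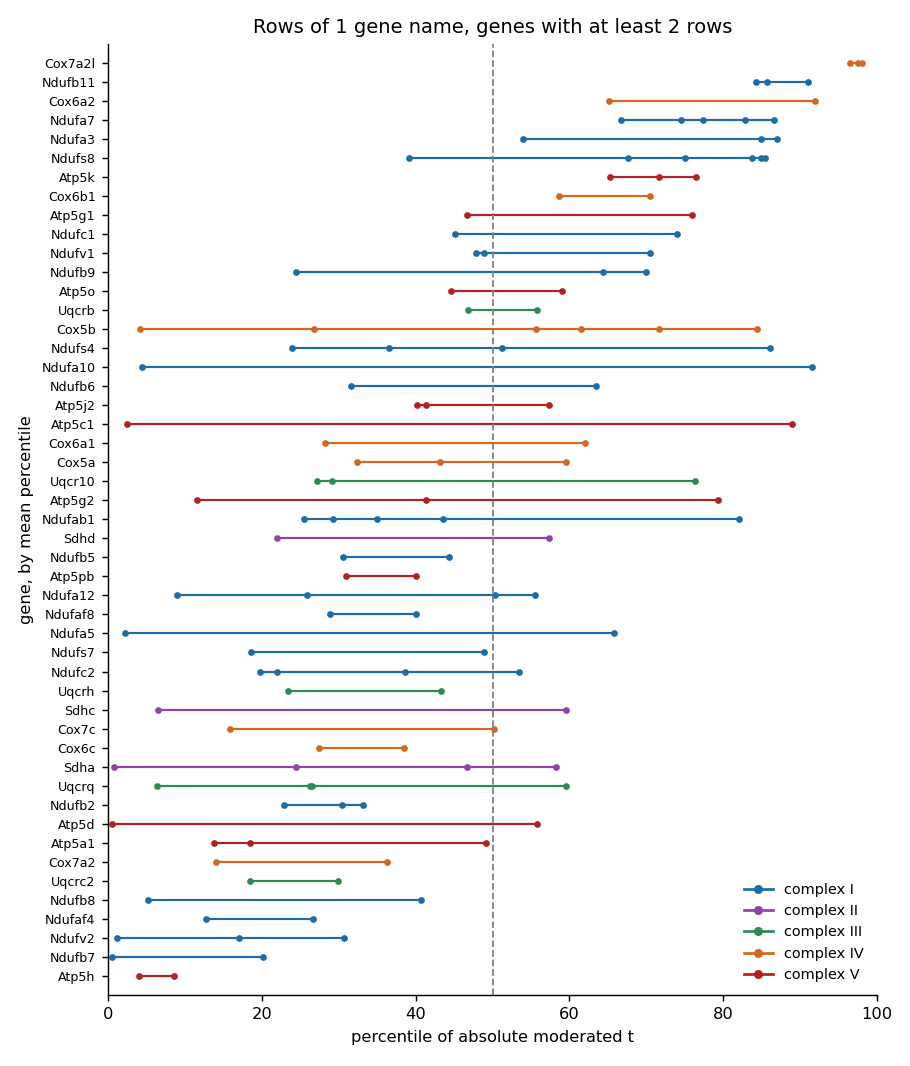
Percentile of the absolute moderated t (x axis) of every row of the 49 member genes with at least 2 rows (y axis, ordered by mean), with a line from the lowest to the highest row and colours for the complexes. Cox7a2l sits at the top with rows from 96.5 to 98.1, and Atp5h at the bottom with rows from 4.01 to 8.56.

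The kind of probe set differed between members and the array. Rows whose identifier ends in _x_at, _s_at or _a_at, which can pick up more than 1 transcript, made up 48.9% of member rows and 22.8% of all rows. Both kinds were lower in members than in the array. Members had medians of 50.2 (85 such rows, against 56.0 over all rows of the kind) and 33.0 (89 other rows, against 48.3). Of the 4 calls, 3 were rows of the first kind. The part of probe set kind in the overall result was not tested beyond these values.

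Other mitochondrial gene groups did not all share the low ranks. Assembly factors of the chain outside the Ndufaf genes, with cytochrome c, had a median of 64.4 over 60 rows of 35 genes, and 3 rows passed (5.00%, against 5.19% of all rows). These were Sdhaf1, an assembly factor of complex II (limma adjusted p = 0.0245), Surf1 of complex IV (0.0380) and Acad9 of complex I (0.0397). Genes that keep and transcribe mitochondrial DNA had a median of 62.9 and 4 calls in 29 rows (13.8%). They were the thymidine kinase Tk2 (0.0175), the DNA polymerase Polg (0.0207), the exonuclease Mgme1 (0.0253) and the packaging and transcription factor Tfam (0.0405, named after its value was seen). Factors listed here as regulators of respiratory genes had a median of 53.7. Calls were for Nfe2l2 (0.0342) and Yy1 (0.0385) in 43 rows (4.65%), with Esrra next at 0.0961, all by limma.

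The citric acid cycle and pyruvate dehydrogenase group had a median of 52.5. It had 2 calls in 48 rows (4.17%, against 5.19% of all rows). They were Ogdh of the cycle (limma adjusted p = 0.0309) and the kinase Pdk3 (0.0453), with its relative Pdk2 at 0.0501. Import proteins and carriers had a median of 55.9 and 5 calls in 64 rows (7.81%, against 5.19% of all rows). They were of the import receptors Tomm20 (limma adjusted p = 0.0225 for its strongest row) and Tomm70a (0.0455) and the outer membrane channel Vdac3 (0.0482). Closest to the respiratory chain over rows was the mitochondrial ribosome, with a median of 42.9 over 156 rows of 76 genes. It had 1 call (0.641%), Mrpl38 (limma adjusted p = 0.0386), before Mrpl37 (0.0630) and Mrpl18 (0.0737). Averaged over the rows of each gene its median was 47.8, near the 48.6 of all genes, against 35.7 in the members. In it 37 genes lay above 50. The ribosome's median was 51.9 with the brightest row of each gene and 51.3 with the mean over rows. No difference between these groups was tested. Leaving out 1 array at a time, calls ran from 0 to 5 in the assembly factors and in the import group. They ran from 0 to 4 in the mitochondrial DNA group and the ribosome, 0 to 2 in the regulators and 0 to 3 in the citric acid cycle. With array number as a covariate each had 0. Of all rows, 0.987% to 6.51% passed without 1 array and 0.0773% with the covariate, so counts this small do not set the groups apart. Without wildtype replicate 3 all were at 0 but the ribosome (1), and without wildtype replicate 4 all but the mitochondrial DNA group (1). Over the settings the median ran from 57.9 to 66.8 in the assembly factors, 51.1 to 73.7 in the mitochondrial DNA group and 43.9 to 74.8 in the regulators. It ran from 47.2 to 62.2 in the citric acid cycle group, 44.8 to 60.8 in the import group and 41.3 to 51.9 in the ribosome. With array number as a covariate the import group (45.6) and the ribosome (44.4) lay below the members (49.6), so the order of these groups turned. The other groups had 51.4 (regulators), 52.6 (citric acid cycle), 61.8 (mitochondrial DNA) and 66.7 (assembly factors) there.

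**Figure D5:**
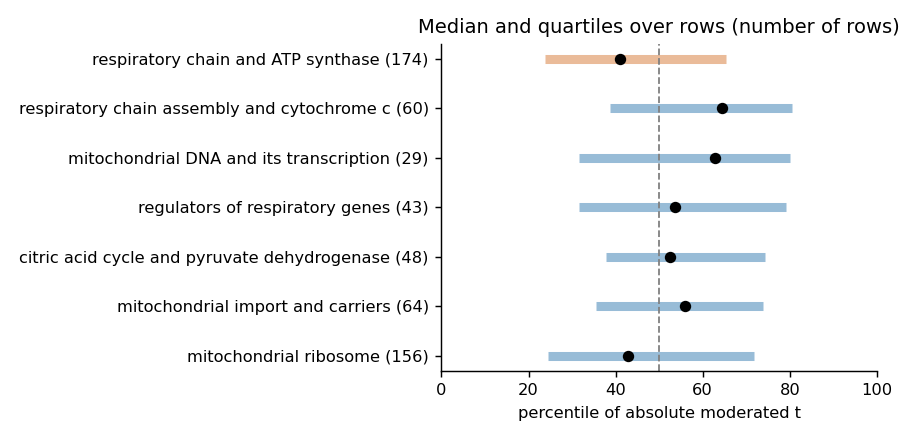
Median (points) and quartiles (bars) of the percentile of absolute moderated t (x axis) over the rows of each gene group (y axis, with the number of rows). The respiratory chain and ATP synthase (41.0) and the mitochondrial ribosome (42.9) have their medians left of the dashed line at 50, and the other groups have them to its right. With array number as a covariate, not drawn, the import group (45.6) lay below the members (49.6).

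Rows named for markers of the cell types a whole colon holds were read by strength only, so the tissue label could not be checked by level. Colon epithelium markers had 5 calls in 23 rows (21.7%, against 5.19% of all rows) and a median percentile of 76.8. They were led by the intestinal transcription factor Cdx2 (limma adjusted p = 0.00522). At an unadjusted p under 0.05 there were 10 (43.5%, against 21.1% of all rows, limma). Smooth muscle markers had 0 calls in 17 rows (5 at an unadjusted p under 0.05, 29.4%, limma) and a median of 64.2. Skeletal and cardiac muscle markers, which include the members Cox6a2 and Cox7a1, had 0 in 23 (4) and 59.3, immune cell markers 0 in 7 (2) and 42.9, and fat markers 2 in 8, both Fabp4, and 52.5. The part of epithelial change in the members' values was not tested.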

How the data were processed

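Whole-colon RNA was measured on 9 arrays. The authors deposited probe set intensity values on a linear scale, and the submitters' processing notes name Affymetrix Expression Console 1.1. No source used here gives the summary algorithm or the background correction. Array medians lay between 53.8 and 54.7, and the values were not normalized again. Precision is limited by how few arrays there are.

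Of 45101 rows, 64 controls were left out. The other 45037 were tested as log2(intensity + 16), mutant (n = 5) against wildtype (n = 4), with limma 3.58.1 in R 4.3.3 (lmFit, eBayes, two-sided, 7 residual and 2.26 prior degrees of freedom) and Benjamini-Hochberg adjustment across them. Rows rather than genes were tested because names do not carry a level by which to choose a row. Percentiles of absolute t were taken among the 34945 rows with 1 symbol.

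The members, complexes, gene groups and markers were chosen with earlier results of these data known, so no p is given for a group. Named genes were the rows past the threshold, the 3 genes with the smallest p in each complex and other gene group, and all catalytic, ring and paired-form subunits. Other rows in the text illustrate the range of a complex and were named after their values were seen. The fit was tested on simulated data. Promoter windows came from RefSeq (GRCm38.p6), and motif letters were chosen from general knowledge. Alternatives changed 1 choice at a time.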

Additional observations from a re-analysis of the deposited data

Results flagged for a closer look

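In 4 of the 34 groups of arrays checked in named member rows, 1 array lay apart from the rest by more than Dixon's 95% value (0.829 of the range for 4 arrays, 0.71 for 5), and chance does this in about 1 group in 20. These were wildtype replicate 2 in the strongest Ndufb11 row (gap 0.932 of the range), wildtype replicate 3 in the strongest Sdha row (0.907), wildtype replicate 1 in the strongest Uqcr10 row (0.920) and mutant replicate 4 in the strongest Atp5g2 row (0.732). In the Ndufb11 row, wildtype replicate 2 stood at 0.71 on the scale between the group means, beyond mutant replicate 4 at 0.68. None of these 4 rows passed the threshold (limma adjusted p = 0.0886, 0.562, 0.301 and 0.255).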

How the results depend on the processing

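With the brightest row of each gene 2 members passed, with the mean over a gene's rows 1 and without _x_at, _s_at and _a_at rows 1. With array number as a covariate 0 passed, at an adjusted p under 0.01 0 and under 0.10 7. Without Cox7a2l, or without assembly and other genes, 1 passed (both added after the data were seen). Leaving out each array gave 0 to 4. The members' median percentile was 36.3 with the mean over rows, 34.0 without _x_at, _s_at and _a_at rows, 42.7 with quantile normalization, 49.6 with array number, and 39.3 to 44.5 leaving out each array. It stood under 50 in each of these. In complex I it was 37.2 (brightest row), 30.4 (mean over rows), 44.6 (dim rows left out), 28.9 (_x_at, _s_at and _a_at rows left out), 50.2 (array number) and 39.3 to 47.2 without 1 array. In complex II it was 25.4 (_x_at, _s_at and _a_at rows left out), 37.5 (array weights), 64.1 (array number) and 31.4 to 53.7. In complex III it was 41.1 (mean over rows), 37.9 (_x_at, _s_at and _a_at rows left out), 38.1 (array weights) and 24.7 to 38. In complex IV it was 37.4 (brightest row), 39.3 (mean over rows), 32.1 (_x_at, _s_at and _a_at rows left out), 43.4 (trend and robust), 40.1 (array number), 43.7 (pseudocount 1) and 41.2 to 56.0. In complex V it was 51.2 (brightest row), 29.4 (mean over rows), 33.1 (dim rows left out), 56.2 (array number) and 34.6 to 49.4. The order of the complexes was thus not stable over these settings, and the cause was not tested. Settings that average or drop rows test fewer rows or genes by construction. No paired analysis was possible because replicate numbers were given in accession order and pair no samples.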
